A study of Mus musculus with 15 samples.

Results

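The nuclear genes of the mitochondrial respiratory chain and the ATP synthase were followed in mouse kidney. They were taken by symbol as all genes of the deposited table that begin with Nduf and a, b, c, s or v, that are Sdha, Sdhb, Sdhc or Sdhd, or that begin with Uqcr, with Cox4 to Cox8 or with Atp5. This gave 92 of 19602 genes, after 2 symbols marked as pseudogenes were left out. Sorted by symbol, 39 were counted as subunits and 8 as assembly factors of complex I. Another 4 genes were counted with complex II, 8 with complex III, 16 with complex IV and 17 with complex V. The symbol alone, as for Atp5s in complex V, does not show that each is a structural subunit. Ndufa4, now counted with complex IV, and its paralogue Ndufa4l2 are therefore among the complex I subunits in all counts and medians. Cox7a2l, which joins complexes III and IV, is among those of complex IV. Of the 92, 90 reached a normalised count of 10 in at least 3 libraries and were tested, and Cox4i2 and Ndufb4c did not. The 15 libraries came from whole kidneys, perfused with cold phosphate-buffered saline, and hold the 3' ends of polyadenylated RNA. The 4 groups were generation 3 (G3) Tert-/- mice given folic acid (n = 4), G3 Tert-/- mice given vehicle (n = 4), Tert+/+ mice (WT) given folic acid (n = 3) and Tert+/+ mice given vehicle (n = 4). Folic acid was 1 intraperitoneal injection of 125 mg/kg, the vehicle was 0.3 M NaHCO3 (200 ul), and all mice were 6 to 8 weeks old and were killed at day 14. Tert encodes the catalytic part of telomerase, and in G3 mice telomeres have shortened over generations bred without it. No source used here says which part of Tert was removed, and kidney numbers below follow accession order and pair nothing.

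The respiratory chain passes electrons from NADH (complex I) and succinate (complex II) through ubiquinone to complex III, cytochrome c and complex IV, which reduces oxygen. Complexes I, III and IV pump protons across the inner mitochondrial membrane, and complex V, the ATP synthase, lets them back to make ATP. Kidney tubules, above all the proximal tubule and the thick ascending limb, are rich in mitochondria and depend on this ATP for solute transport. Complex II is encoded by nuclear genes alone, and the other complexes also hold subunits made from the mitochondrial genome. Complex IV has paired isoforms of some subunits, a general form and forms found mainly in heart and skeletal muscle, brown fat, lung or testis.

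Promoters are shown first for the 5 members that passed the test in at least 1 comparison below, because they carry the calls. In RefSeq promoter windows of 300 bases (250 before and 50 after the start, GRCm38.p6), 75 of the 92 members were found. The NRF-1 motif GCGCANGCG was present on either strand in 22 of them (29.3%), against 6.23% of 27025 promoters of all genes. CCGGAAG, the core bound by GABP, was present in 18 (24.0%, against 9.03%), the YY1 motif AAGATGGCG in 8 (10.7%, against 1.51%) and the ERR alpha motif TCAAGGTCA in 2 (2.67%, against 0.377%). NRF-1, GABP, YY1 and ERR alpha are factors known to bind genes of the respiratory chain. The 27025 promoters were taken whether or not their genes had reads here. No share was taken over expressed genes or over promoters of like base composition. Whether these shares are particular to the members was therefore not tested. By class, the NRF-1 motif was found in 8 of 33 complex I subunits, 2 of 7 assembly factors, 2 of 3 complex II, 2 of 5 complex III, 1 of 12 complex IV and 7 of 15 complex V promoters. The 250 bases before the start are printed 5′ to 3′ along the gene, with the only match inside them, the NRF-1 motif of Atp5c1, in capitals. Where RefSeq lists several starts (Atp5c1), the most downstream was used.
Ndufs8 (chr19:3912775-3913024, minus strand): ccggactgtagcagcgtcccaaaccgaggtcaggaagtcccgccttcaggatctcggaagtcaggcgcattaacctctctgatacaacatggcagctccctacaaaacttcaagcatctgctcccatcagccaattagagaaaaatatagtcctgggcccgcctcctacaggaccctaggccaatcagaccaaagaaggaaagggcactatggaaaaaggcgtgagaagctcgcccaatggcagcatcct
Uqcrc1 (chr9:108936398-108936647, plus strand): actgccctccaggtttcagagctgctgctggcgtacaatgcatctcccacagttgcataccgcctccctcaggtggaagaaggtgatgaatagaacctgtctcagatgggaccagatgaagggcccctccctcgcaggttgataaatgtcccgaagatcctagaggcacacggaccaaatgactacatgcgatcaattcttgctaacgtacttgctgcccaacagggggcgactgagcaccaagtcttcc
Cox6b2 (chr7:4753095-4753344, minus strand): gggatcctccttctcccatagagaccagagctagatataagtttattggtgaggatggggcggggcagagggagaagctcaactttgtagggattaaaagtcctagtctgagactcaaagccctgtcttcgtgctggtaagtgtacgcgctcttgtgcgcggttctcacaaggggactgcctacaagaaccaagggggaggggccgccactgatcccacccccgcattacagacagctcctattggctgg
Cox8b (chr7:140900447-140900696, minus strand): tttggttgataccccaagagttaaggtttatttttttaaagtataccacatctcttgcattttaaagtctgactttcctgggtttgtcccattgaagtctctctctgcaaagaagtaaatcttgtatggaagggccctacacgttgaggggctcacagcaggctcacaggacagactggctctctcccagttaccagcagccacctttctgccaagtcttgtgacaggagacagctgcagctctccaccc
Atp5c1 (chr2:10080433-10080682, minus strand): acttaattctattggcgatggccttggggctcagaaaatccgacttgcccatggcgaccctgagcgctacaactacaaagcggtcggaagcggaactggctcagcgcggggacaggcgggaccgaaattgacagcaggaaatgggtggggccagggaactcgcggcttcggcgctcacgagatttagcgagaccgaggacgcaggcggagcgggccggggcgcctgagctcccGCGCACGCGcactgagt
The match in Atp5c1, GCGCACGCG, begins 17 bases before the start. Uqcrc1 held an NRF-1 match beginning 7 bases after the start, CGCTTGCGC on the plus strand (a match of the minus strand), and GCGCATGCG at 31 bases after it, which overlaps a match of the minus strand. Ndufs8 held a GABP match beginning 16 bases after the start (CTTCCGG on the plus strand, a match of the minus strand). The windows of Cox6b2 and Cox8b, the subunits known from testis and from muscle and brown fat, held none of the 4 motifs. These matches are letters in a window and show no binding.

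Between 5014684 and 6609307 reads per library were assigned to genes (median 6091019). Values are counts divided by 1 size factor per library, so that 1 read was worth 0.895 to 1.13 normalised counts. WT folic acid 1 stood apart, with 23.0% of its reads in the gene Gm42418 (4.85 to 8.15% elsewhere), and member calls and class medians for folic acid in WT are given without it as well. Xist and Y-linked RNA went against the labelled sex in 10 libraries, matched it in 3, and in WT vehicle 2 and G3 folic acid 4 both kinds were present. The Y share (summed Ddx3y, Kdm5d, Eif2s3y and Uty over the highest library) was 0.800, 0.0173, 0.771 and 0.315 in G3 folic acid, 0.00113 to 0.00873 in G3 vehicle, 0.0110 to 0.0340 in WT folic acid and 0.986, 0.327, 0.942 and 1 in WT vehicle kidneys. Sex by RNA therefore differed between the groups of every comparison and can hardly be told apart from treatment or genotype, so calls and class medians are given again with the Y share as a term. Sample titles carry running numbers, which could mark a batch and also nearly repeat the groups. Tert itself was low in every library, at a normalised count of 2.93 to 15.1 in G3 and 3.00 to 22.6 in WT kidneys, and reads of transcript 3' ends check neither the deletion nor the labels. All 12 proximal tubule markers had reads in every group, with a sum of 84283 to 203738 in G3 folic acid, 102242 to 120261 in G3 vehicle, 132819 to 160929 in WT folic acid and 176435 to 250270 in WT vehicle kidneys. The list includes Kap, and its sum also lay with sex by RNA. It was 148762 to 250270 in the 5 libraries rich in Y-linked RNA and 84283 to 160929 in the 8 rich in Xist. The part of sex in that sum was not tested. Single markers did not all follow that sum. Lrp2 was 4109 to 5815 in G3 folic acid, against 8159 to 9417 in G3 vehicle kidneys, while Slc5a2 and Slc34a1 overlapped. In WT folic acid 1 Slc5a2 was 199 (837 and 900 in WT folic acid 2 and 3). Slc34a1 was 5544 there (16057 and 16626) and Lrp2 8702 (12006 and 10872). Even the closest replicates differed beyond counting noise, with a chi-square per gene averaging 2.88 (G3 vehicle 3 and 4) and 3.01 (WT folic acid 2 and 3), where counting alone gives 1.

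In total the 92 members took 2.37 ± 0.0420% of reads in G3 folic acid, 2.46 ± 0.0691% in G3 vehicle, 2.04 ± 0.278% in WT folic acid and 2.28 ± 0.0986% in WT vehicle kidneys (SD, n = 4, 4, 3 and 4). The single lowest share, 1.72%, was that of WT folic acid 1 and became 2.24% when its Gm42418 reads were left out, with 2.34 to 2.73% in the other libraries counted in that way. Averaged over the 90 tested members, the deviation of a library from each gene's own mean lay between -0.14 (WT folic acid 1) and 0.18 (G3 vehicle 2) on the log2 scale. The level of G3 folic acid kidneys ran from -0.10 to 0.11, of G3 vehicle from -0.09 to 0.18, of WT folic acid from -0.14 to 0.01 and of WT vehicle from -0.09 to 0.17, so every group overlapped every other. In whole kidney, fewer mitochondria-rich cells and less of this RNA per cell cannot be told apart.

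**Figure D1:**
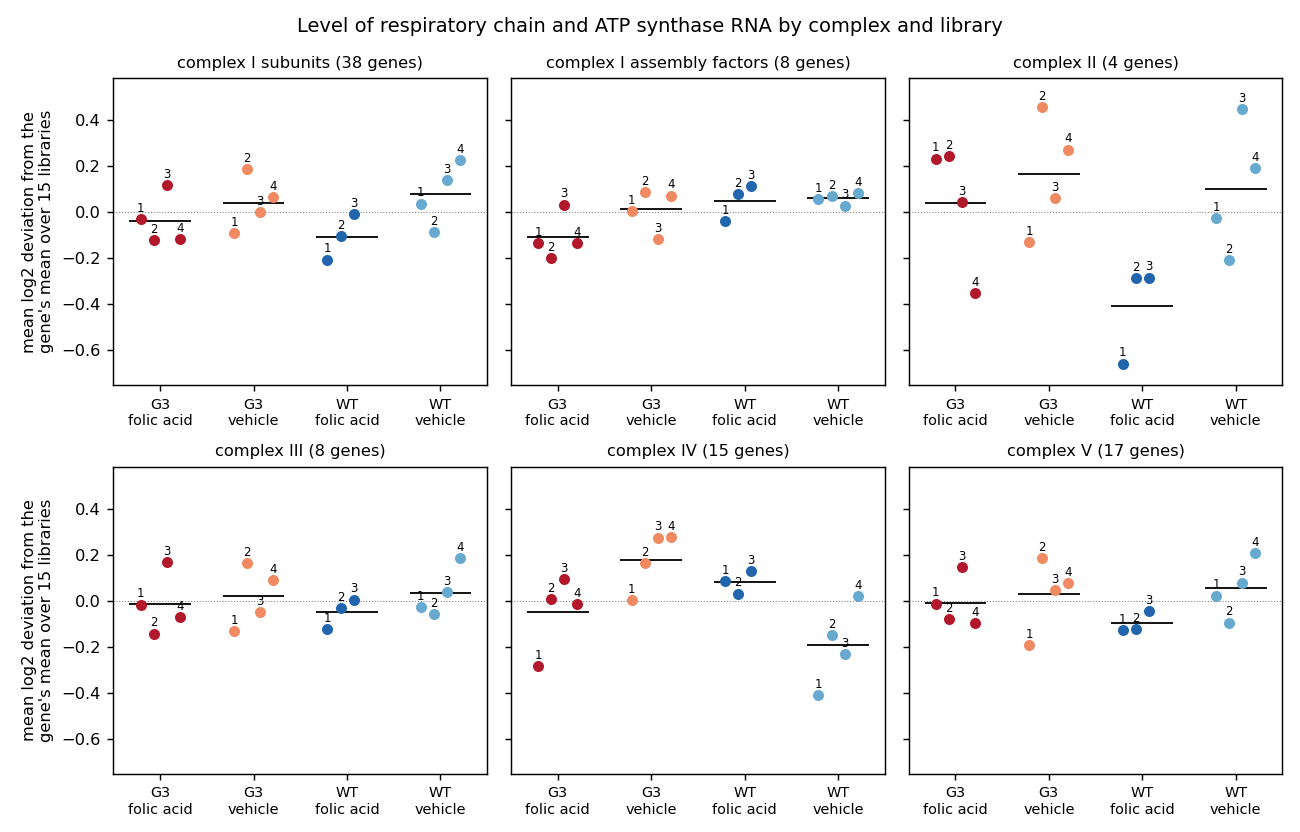
Each panel plots 1 class of genes, with the 4 groups across and the mean log2 deviation of the class's tested members from their own means over 15 libraries up the page; points are libraries with their numbers and lines are group means. Complex I, III and V overlap between all groups, the mean of WT folic acid is the lowest in complex II (libraries at -0.66 to -0.28, overlapping G3 folic acid at -0.35 to 0.24), and complex IV lies between -0.41 and 0.02 in WT vehicle against 0.03 and 0.13 in WT folic acid. This level weighs every tested member alike, also the low-count Cox6b2 and Cox8b. Summed normalised counts of complex IV overlap, at 28646 to 35248 in WT vehicle and 30456 to 31148 in WT folic acid.

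Folic acid in WT kidneys moved 3 of the 90 tested members past an adjusted p of 0.05 (1 higher, 2 lower; 3.33%), where 5.06% of all 14651 genes were called. The members called were Cox6b2, which rose, and Ndufs8 and Atp5c1, which fell. The median difference over the members was log2 -0.15, against 0.01 over all genes tested, and 64 of 90 members (71.1%) lay below 0, against 48.7% of all genes. Groups did not overlap for 24 members (26.7%, against 19.9% of all genes), 19 of them lower (10.6% of all genes) and 5 higher (9.31% of all genes). Log2 differences are between means of log2(normalised count + 1), which understates the change of low genes, and p-values measure the spread between libraries, which the labels give as separate samples without saying more of their source. The count of calls turned on single libraries. Without WT folic acid 1 limma called 0 members (39 genes higher and 94 lower of 14501), with a median of -0.11 and 68.9% of members below 0. It called 1 member, Cox6b2, without WT folic acid 2 or 3 or WT vehicle 1, 3 or 4, and 9 (with 8.95% of all genes called) without WT vehicle 2, the library that held Xist and Y-linked RNA. Fitted with the Y share, the median was 0.056, and limma, edgeR and DESeq2 called 0 members (0.00683% of all genes by limma; 2 members, or 2.22%, at an unadjusted p under 0.05, against 4.38% of all genes). The WT folic acid kidneys held almost no Y-linked RNA and 3 of the 4 WT vehicle kidneys held much, so that treatment and sex by RNA can hardly be told apart here.

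In G3 kidneys 0 of the 90 members were called after folic acid by limma, with 0.273% of all genes called, and edgeR and DESeq2 called 0 as well. At an unadjusted p under 0.05 limma had 1 member higher and 8 lower (13.8% of all genes in either direction). The median was log2 -0.05, against -0.01 over all genes, with 59 of 90 members (65.6%) below 0, against 51.6% of all genes. Groups did not overlap for 1 member that was higher (Atp5mpl; 3.98% of all genes) and 2 that were lower (Cox8b and Uqcrc1; 3.77% of all genes). Leaving out G3 folic acid 2 or WT folic acid 1 gave 1 call, Cox8b. After a Y share term was added the median was -0.18, and limma, edgeR and DESeq2 called 0 members (0.0614% of all genes by limma; 9 members at an unadjusted p under 0.05, against 8.93%).

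Between genotypes after vehicle, 1 member was higher in G3 (Cox6b2; 1.11%, with 2.9% of all genes called) and the median was log2 -0.03, against 0.02 over all genes. Between genotypes after folic acid, 1 member was lower in G3 (Uqcrc1; 1.11%, with 2.3% of all genes called) and the median was 0.00, against 0.01. After folic acid the genotypes did not overlap for 16 members higher in G3 (7.84% of all genes) and 9 lower in G3 (9.44% of all genes), together 27.8% of the members and 17.3% of all genes. After vehicle these were 2 and 3 (4.29% and 6.72% of all genes), together 5.56% and 11.01%. The difference between the folic acid effects, G3 minus WT, called Cox8b and Uqcrc1 (2.22%, with 3.82% of all genes called) and had a median of 0.08, against -0.01. Single libraries moved these counts too. After vehicle, limma called 2 members without G3 folic acid 2 or WT folic acid 1, 3 (with 4.69% of all genes called) without WT vehicle 2, 1 (Cox8b) without G3 folic acid 1, and 0 without G3 folic acid 4, any of G3 vehicle 2 to 4, WT folic acid 2 or 3, or WT vehicle 1, 3 or 4. After folic acid it called 2 without G3 vehicle 2 or 3, 3 without WT folic acid 1 (4.31% of all genes), 5 without WT vehicle 2 (3.56%), 6 without G3 vehicle 1 (3.23%), and 0 without G3 folic acid 1 or WT folic acid 2 or 3. For the difference of effects it called 5 without WT vehicle 2 (6.34% of all genes), 0 without WT folic acid 3, and 1 without G3 folic acid 1, G3 vehicle 2 or 4, WT folic acid 2, or WT vehicle 1 or 3. Adding the Y share left 0 members called by limma in the 3 comparisons, with 0.00683%, 0.116% and 0.0137% of all genes called in the order given. At an unadjusted p under 0.05 it then had 10, 9 and 1 members (5.79%, 10.5% and 2.78% of all genes), edgeR called 0 in each, and DESeq2 called 0, 1 (Uqcrc1) and 0. The medians with that term were 0.15, -0.07 and -0.23, the first and the last of the opposite sign to those without it. None of the calls named here, of members or of other genes of the pathway, held with the running numbers of the titles as a term. Fits with the labelled sex called 1 member (Cox6b2) for folic acid in WT, 0 for folic acid in G3, 0 between genotypes after vehicle, 1 (Uqcrc1) after folic acid and 0 for the difference of effects, with 2.53%, 0.0819%, 0.116%, 1.83% and 0.703% of all genes called. The comparisons share groups, so none of these counts is independent of the others.

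**Figure D2:**
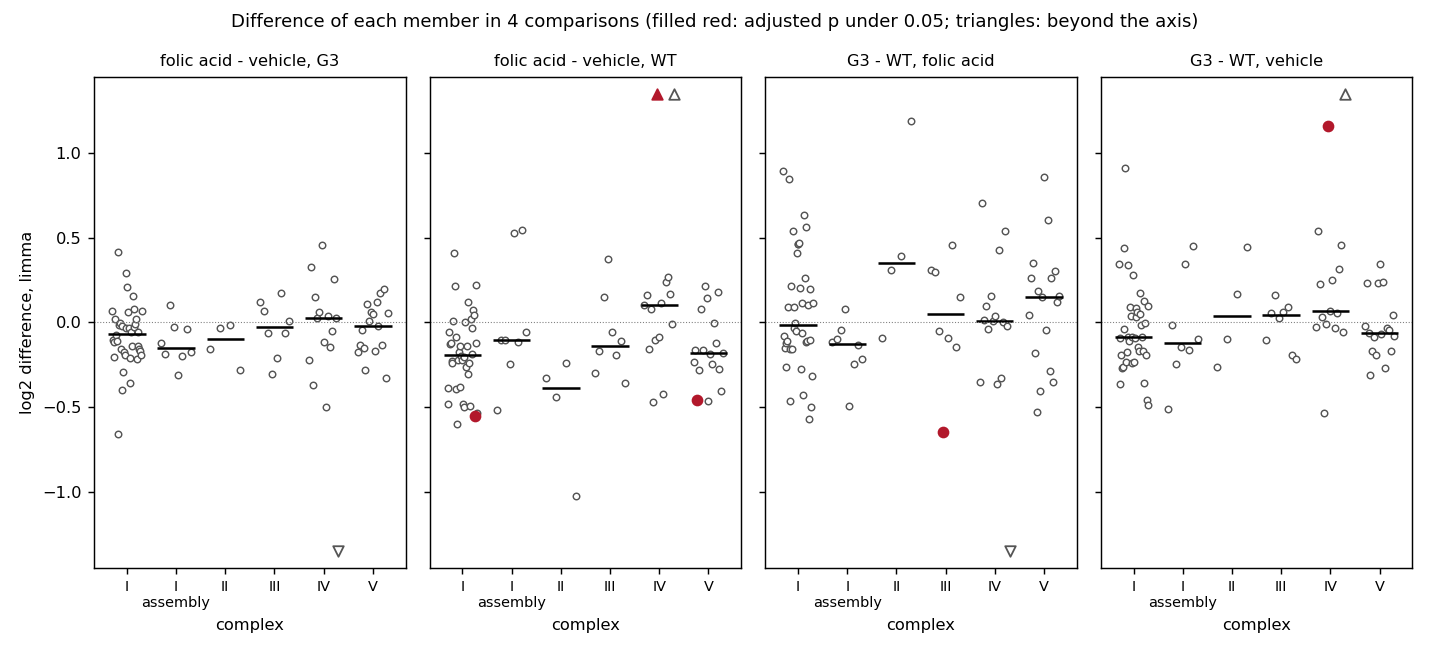
Each panel plots 1 comparison, with the classes across and the limma log2 difference of each tested member up the page; lines are class medians, filled red marks have an adjusted p under 0.05, and triangles mark Cox8b and, for folic acid in WT, Cox6b2, which lie beyond the axis. Most members lie within 0.6 of 0, and the class medians lie between -0.39 (complex II, folic acid in WT) and 0.35 (complex II, G3 against WT after folic acid).

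Complex I, the NADH dehydrogenase, showed 1 called subunit, Ndufs8, a core iron-sulphur protein. Its normalised count was 665, 863 and 894 in WT folic acid kidneys, against 1314, 1026, 1145 and 1234 in WT vehicle kidneys. Each WT folic acid kidney lay below all WT vehicle kidneys, and WT folic acid 1 was the lowest of the 15. Ndufs8 fell 1.47-fold (log2 -0.55, SE 0.14, limma adjusted p = 0.0314). It was 899.6, 781, 1086 and 934 in G3 folic acid kidneys, against 1003, 1116, 943 and 1048 in G3 vehicle kidneys, and these groups overlapped (log2 -0.16, SE 0.13, limma adjusted p = 0.643). The call in WT turned on single libraries: the adjusted p was 0.141 without WT folic acid 1 and 0.0501 to 0.0965 without WT folic acid 2 or 3 or WT vehicle 1, 3 or 4. It was 0.0602 with the labelled sex, 0.0657 with the compared groups alone and 0.0645 without the mean-variance trend. With the Y share as a term the difference was log2 -0.24 (limma adjusted p = 0.981).

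The other core subunits described here did not pass in any comparison. Ndufs1, the largest iron-sulphur subunit, averaged 847 ± 112 in G3 folic acid, 864 ± 126 in G3 vehicle, 702 ± 26.1 in WT folic acid and 832 ± 73.7 in WT vehicle kidneys (SD, n = 4, 4, 3 and 4). Ndufv1, the flavoprotein that binds NADH, ran from 1314 in G3 folic acid 2 to 3061 in WT vehicle 2, and its differences ran from log2 -0.50 to -0.12 over the 4 comparisons of 2 groups, with SEs of 0.19 to 0.20.

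Among the accessory subunits, Ndufb5 of the membrane arm had 455, 625 and 703 in WT folic acid kidneys, against 794, 726, 895 and 905 in WT vehicle kidneys, with no overlap (log2 -0.50, SE 0.16, limma adjusted p = 0.0791). Ndufs6, an accessory subunit that binds zinc, had the smallest p of the complex I subunits between genotypes after folic acid, at 1496, 1255, 1788 and 1812 in G3 folic acid kidneys, against 2309, 2509 and 2206 in WT folic acid kidneys (log2 -0.57, SE 0.16, limma adjusted p = 0.0617). The groups did not overlap, and Ndufb5 differed in the opposite direction there, also short of the threshold (log2 0.47, SE 0.16, limma adjusted p = 0.118). After vehicle Ndufs6 averaged 1743 ± 259 in G3 and 2235 ± 302 in WT kidneys (SD), with overlap. How near Ndufs6 or any other member lies to the Tert gene was not examined for the comparisons of genotypes. Ndufb7 had the smallest p after folic acid in G3 (log2 -0.36, SE 0.12, limma adjusted p = 0.196), Ndufv3 between genotypes after vehicle (log2 -0.49, SE 0.17, limma adjusted p = 0.136), and Ndufb4 in the difference of the folic acid effects (log2 0.69, SE 0.24, limma adjusted p = 0.142). Ndufa9, an accessory subunit near the quinone site, and Ndufab1, the acyl carrier protein of mitochondria, differed by log2 -0.29 to 0.09 over the 4 comparisons of 2 groups. Ndufa4l2, a paralogue of Ndufa4 induced by low oxygen, had only 4.74 to 16.0 normalised counts per library. It was 12.2, 15.6, 10.8 and 14.0 in G3 vehicle kidneys, against 7.92, 4.74, 7.68 and 5.99 in WT vehicle kidneys, without overlap but short of the threshold (log2 0.91, SE 0.36, limma adjusted p = 0.187). Ndufb4c, a copy of Ndufb4, was at 0 to 3.40 and was not tested.

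Over all 38 tested complex I subunits the median was log2 -0.19 for folic acid in WT (29 below 0; -0.15 without WT folic acid 1), -0.07 for folic acid in G3 (28 below 0), -0.09 between genotypes after vehicle (24 below 0) and -0.02 between genotypes after folic acid (20 below 0). Below 0 lay 48.7%, 51.6%, 47.8% and 49.3% of all genes in these comparisons. The 8 assembly factors, which help to build complex I and are not part of it, had medians of -0.10 (0.0044 without WT folic acid 1, with 50% below 0), -0.15, -0.12 and -0.13 (-0.21 without WT folic acid 1) in the same order. With the Y share as a term the medians in that order were 0.058, -0.20, 0.13 and -0.095 for the subunits and 0.019, -0.21, -0.0060 and -0.19 for the assembly factors. With the group as the only term none of the 8 assembly factors passed. In that fit 3, 0, 2 and 1 of them had an unadjusted limma p under 0.05 (23.1%, 13.8%, 17.9% and 20.4% of all genes). Ndufaf7, a methyltransferase, had 85.1, 69.1 and 98.2 in WT folic acid kidneys, against 66.7, 51.2, 59.5 and 50.9 in WT vehicle kidneys, without overlap (log2 0.55, SE 0.18, limma adjusted p = 0.0842). Ndufaf1, which acts early in assembly, had 95.6, 68.4, 62.8 and 78.2 in G3 vehicle kidneys, against 111, 111, 94.98 and 115 in WT vehicle kidneys (log2 -0.51, SE 0.17, limma adjusted p = 0.117), with G3 vehicle 1 just above WT vehicle 3. Ndufaf5, an enzyme that modifies Ndufs7, had 49.0, 38.5, 46.0 and 41.2 in G3 folic acid kidneys, against 69.2, 52.8 and 63.9 in WT folic acid kidneys, without overlap (log2 -0.49, SE 0.20, limma adjusted p = 0.184). Its difference between the folic acid effects, log2 -0.84, did not pass either (SE 0.28, limma adjusted p = 0.111).

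Complex II, succinate dehydrogenase, had no member that passed (2 of 4 had an unadjusted limma p under 0.05 for folic acid in WT, against 23.1% of all genes). All 4 members were below 0 for folic acid in WT, and their median was log2 -0.39 (-0.30 when WT folic acid 1 was left out). Sdhb, the iron-sulphur subunit, had 1724, 2462 and 2329 in WT folic acid kidneys, against 3240.1, 2602, 2864 and 2977 in WT vehicle kidneys, so the groups did not overlap (log2 -0.44, SE 0.14, limma adjusted p = 0.0793). Sdha, the flavoprotein that oxidises succinate, had 1333, 1761 and 1681 in WT folic acid kidneys, against 2032, 1849, 1919.8 and 2168 in WT vehicle kidneys (log2 -0.33, SE 0.13, limma adjusted p = 0.150). Among the WT kidneys both subunits were lowest in WT folic acid 1, without which Sdhb differed by log2 -0.28 (limma adjusted p = 0.318). In G3 kidneys Sdha had 1486, 1429.9, 1727 and 1323 after folic acid, against 1503, 1981, 1542 and 1644 after vehicle, and Sdhb had 2515, 2431, 3057 and 2661, against 2986, 2373, 2645 and 2902. These overlapped (log2 -0.16, SE 0.12, limma adjusted p = 0.635; log2 -0.03, SE 0.13, limma adjusted p = 0.953).

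The membrane anchor Sdhd was the least even member of complex II. It had 102, 121, 43.0 and 26.8 in G3 folic acid, 46.8, 129, 60.6 and 87.2 in G3 vehicle, 17.0, 29.8 and 36.2 in WT folic acid and 37.3, 39.8, 124 and 49.0 in WT vehicle kidneys. It was highest in G3 vehicle 2, WT vehicle 3 and G3 folic acid 1 and 2 and lowest in the WT folic acid kidneys and G3 folic acid 4, and its difference between genotypes after folic acid did not pass (log2 1.19, SE 0.50, limma adjusted p = 0.191). The other anchor, Sdhc, was 273 to 549 over the 15 libraries, and its differences lay between log2 -0.24 and 0.40. Complex II medians with the Y share as a term were log2 -0.18 for folic acid in WT, -0.28 for folic acid in G3, 0.31 between genotypes after vehicle and 0.16 after folic acid.

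Complex III, the cytochrome bc1 complex, held the one member whose folic acid response differed between genotypes at high counts. Uqcrc1, a core protein of the matrix arm, was 1569, 1475, 1791 and 1670.3 in G3 folic acid, 1880.4, 2388, 1810.0 and 1976 in G3 vehicle, 2347, 2623 and 2686 in WT folic acid and 1873, 2026, 1829 and 2151 in WT vehicle kidneys. Each G3 folic acid kidney lay below all G3 vehicle kidneys, and each WT folic acid kidney lay above all WT vehicle kidneys. After folic acid Uqcrc1 was 1.57-fold lower in G3 than in WT (log2 -0.65, SE 0.12, limma adjusted p = 0.0155). After vehicle the genotypes overlapped (log2 0.03, SE 0.11, limma adjusted p = 0.933). The difference between the folic acid effects was log2 -0.68 (SE 0.17, limma adjusted p = 0.0303), made up of -0.30 in G3 (adjusted p = 0.220) and 0.37 in WT (adjusted p = 0.0811), neither of which passed. The direction was the same in all 15 fits that left out 1 library. The genotype difference after folic acid stayed called in 12 of them and missed the threshold without G3 folic acid 1 (adjusted p = 0.0680), WT folic acid 2 (0.0831) or WT folic acid 3 (0.0863). The difference of effects stayed called in 8 and missed it without G3 folic acid 1, G3 vehicle 2 or 4, WT folic acid 2 or 3, or WT vehicle 1 or 3 (adjusted p between 0.0509 and 0.0846). Adding the Y share as a term gave log2 -0.69 and -0.77, no smaller than without it, and limma called neither (adjusted p = 0.118 and 0.9997). With the compared groups alone the genotype difference missed the threshold (limma adjusted p = 0.0541). The difference of effects missed it with the labelled sex (0.127) and without the mean-variance trend (0.0622). DESeq2 with the Y share called the genotype difference (adjusted p = 0.00203) and edgeR did not (0.167). Uqcrc1 was 1475 to 2686 in the 8 libraries rich in Xist and 1569 to 2151 in the 5 rich in Y-linked RNA.

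Its partner Uqcrc2, the other core protein, did not show this pattern, with 1116, 1133, 1322 and 1133 in G3 folic acid, 1318, 1543, 1325 and 1266 in G3 vehicle, 1176, 1211 and 1377 in WT folic acid and 1193, 1186, 1418 and 1427 in WT vehicle kidneys. The difference of its folic acid effects did not pass (log2 -0.16, SE 0.16, limma adjusted p = 0.681). Uqcrfs1, the Rieske iron-sulphur protein that carries electrons to cytochrome c1, had 410.3, 378, 446 and 314 in G3 folic acid kidneys, against 263, 284 and 289.8 in WT folic acid kidneys, without overlap and in the direction opposite to Uqcrc1 (log2 0.46, SE 0.20, limma adjusted p = 0.205). Uqcrq, a small subunit beside cytochrome b, had the smallest p of complex III between genotypes after vehicle (log2 -0.22, SE 0.12, limma adjusted p = 0.378). The 8 members had medians of log2 -0.14 for folic acid in WT (-0.072 without WT folic acid 1), -0.03 for folic acid in G3, 0.04 between genotypes after vehicle and 0.05 after folic acid (0.027 without WT folic acid 1). With the Y share as a term these were 0.083, -0.10, 0.22 and -0.040.

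**Figure D3:**
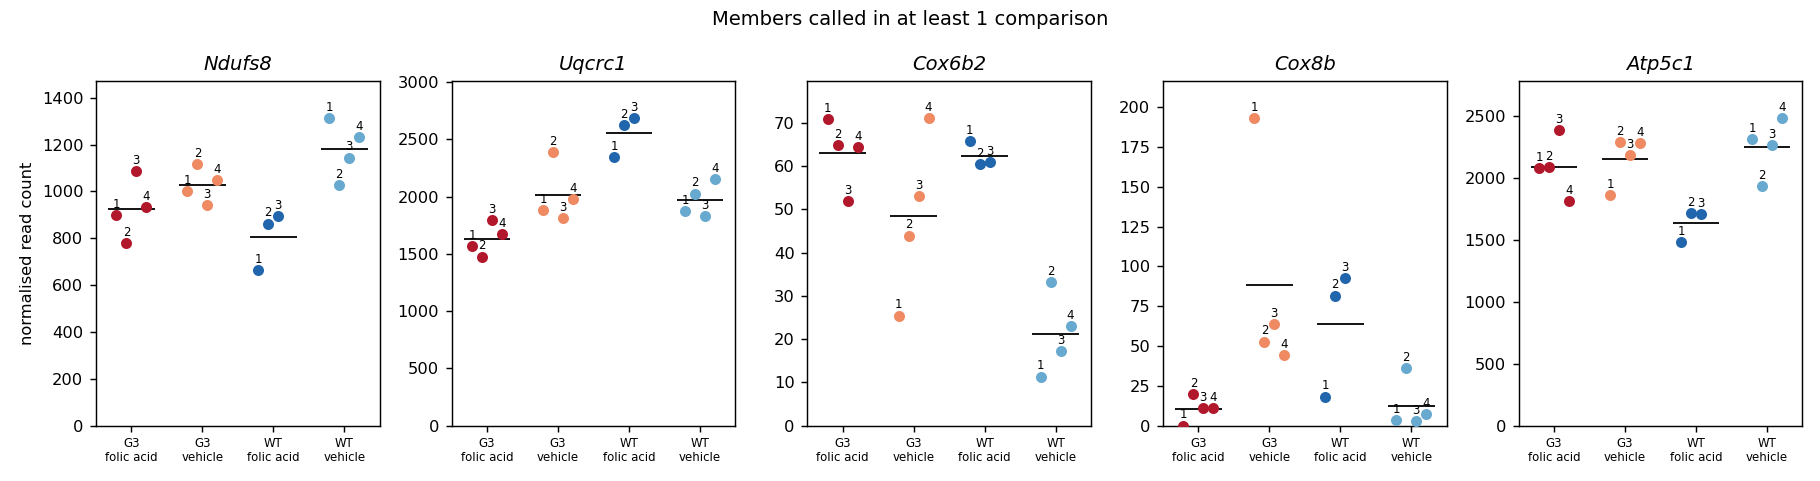
Each panel plots the normalised read count of 1 member called in at least 1 comparison, from 0, with the 4 groups across; points are libraries with their numbers and lines are group means. Uqcrc1 lies at 1475 to 1791 in G3 folic acid and 2347 to 2686 in WT folic acid kidneys, Cox6b2 lies lowest in WT vehicle (11.3 to 33.2), and 1 library, G3 vehicle 1, sets the mean of Cox8b in its group.

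In complex IV, cytochrome c oxidase, the members that passed, Cox6b2 and Cox8b, are both tissue-restricted isoforms. Cox6b2, known as the testis form of subunit 6b, had a normalised count of 70.8, 64.8, 51.9 and 64.4 in G3 folic acid, 25.4, 44.0, 53.0 and 71.2 in G3 vehicle, 65.8, 60.5 and 61.01 in WT folic acid and 11.3, 33.2, 17.3 and 23.0 in WT vehicle kidneys. WT vehicle kidneys lay below all folic acid kidneys of both genotypes, and G3 vehicle kidneys spread over nearly the whole range. Cox6b2 rose 3.06-fold after folic acid in WT (log2 1.61, SE 0.32, limma adjusted p = 0.0149) and was 2.24-fold higher in G3 than in WT after vehicle (log2 1.16, SE 0.30, limma adjusted p = 0.0442). In G3 its folic acid difference did not pass (log2 0.46, SE 0.30, limma adjusted p = 0.545), and neither did the difference of the 2 effects (log2 -1.16, limma adjusted p = 0.178). The rise in WT lost its call without WT folic acid 1 (log2 1.58, limma adjusted p = 0.0549) and held in the other 14 fits that left out 1 library, while the genotype difference held in 5 of 15. It missed the threshold without G3 folic acid 1 or 4, G3 vehicle 2, 3 or 4, WT folic acid 2 or 3, or WT vehicle 1, 3 or 4 (adjusted p between 0.0565 and 0.159). It was also lost with the labelled sex (0.187), the compared groups alone (0.0935), quantile scaling (0.0738) and without the trend (0.0765). After adding the Y share as a term both were smaller, at log2 1.07 and 0.61 (limma adjusted p = 0.981 and 0.841). Cox6b2 was 25.4 to 71.2 (median 60.7) in the 8 libraries rich in Xist and 11.3 to 70.8 (median 23.0) in the 5 with Y-linked RNA and little Xist. It was 33.2 and 64.4 in the 2 libraries that held both. The general form Cox6b1 had 2023, 1909 and 2088 in WT folic acid kidneys, against 2145, 1543, 2709 and 2413 in WT vehicle kidneys, with overlap (log2 -0.11, SE 0.16, limma adjusted p = 0.746).

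Cox8b, the form of subunit 8 known from muscle and brown fat, had 0, 19.7, 10.99 and 10.7 in G3 folic acid, 193, 52.8, 63.8 and 44.1 in G3 vehicle, 18.2, 81.6 and 92.5 in WT folic acid and 3.39, 36.0, 2.88 and 6.99 in WT vehicle kidneys. Within G3 the folic acid kidneys lay below all vehicle kidneys, and after vehicle G3 lay above WT in every library, though WT vehicle 2 reached 36.0. The difference between the folic acid effects was log2 -5.99 (SE 1.27, limma adjusted p = 0.0149). Folic acid in G3 (log2 -3.34, SE 0.86, limma adjusted p = 0.0854), folic acid in WT (log2 2.65, SE 0.93, limma adjusted p = 0.103) and the genotype after vehicle (log2 3.14, SE 0.86, limma adjusted p = 0.0586) did not pass. G3 folic acid 1 held 0 reads, so the fitted log2 values depend on the added count of 1, and with 5 added in its place the difference of effects was log2 -4.68 (adjusted p = 0.00766). It missed the threshold without WT folic acid 3 (log2 -5.58, adjusted p = 0.0517) and was called in the other 14 fits that left out 1 library. The labelled sex as a term ended that call too (adjusted p = 0.0793). Folic acid in G3 passed without G3 folic acid 2 (adjusted p = 0.0373) or WT folic acid 1 (0.0399). Cox8b also lay with sex by RNA. It was 18.2 to 193 in the 8 libraries rich in Xist, 0 to 10.99 in the 5 rich in Y-linked RNA, and 10.7 and 36.0 in the 2 that held both. With the Y share as a term the difference of effects was log2 -1.07 (limma adjusted p = 0.9997).

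The highest Cox8b library, G3 vehicle 1, also held RNA of brown fat. Ucp1, the uncoupling protein of brown fat, was 195 there and 0 to 7.57 in the other 14 libraries, and Cidea, a lipid droplet gene of brown fat, was 677 against 0 to 25.0. The sum of the 5 adipose markers was 2029 in G3 vehicle 1, 160 to 420 in G3 folic acid, 215 to 338 in the other G3 vehicle, 120 to 149 in WT folic acid and 94.8 to 163 in WT vehicle kidneys. Most of that sum was Fabp4, at 1272 in G3 vehicle 1 and 89.1 to 311 in the other 14 libraries. All 5 had reads in every group, but Adipoq was only 0 to 5.99 and Plin1 0 to 1.91 in WT kidneys. Cox7a1, the muscle and brown fat form of subunit 7a, was also highest in G3 vehicle 1, at 177, against 67.2 to 125 in the other 14 libraries. Without G3 vehicle 1 the difference of effects in Cox8b was log2 -5.53 (limma adjusted p = 0.0298). Of 5 markers of skeletal and heart muscle, 2 were in the table and summed to 1.13 to 27.5, highest in the same library. Cox6a2, the heart and muscle form of subunit 6a, stayed at 7.26 to 29.97 in all 15 libraries.

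The general subunits of complex IV did not pass in any comparison. Cox4i1, the main form of subunit 4, averaged 3979 ± 609.6 in G3 folic acid, 4613 ± 253 in G3 vehicle, 5068 ± 614 in WT folic acid and 4746 ± 760.0 in WT vehicle kidneys (SD, n = 4, 4, 3 and 4). Its other form Cox4i2, known from lung and low oxygen, had 0.939 to 9.77 and was not tested. Cox6a1 and Cox8a, the general partners of Cox6a2 and Cox8b, differed by log2 -0.06 to 0.15 over the 4 comparisons of 2 groups, with adjusted p-values of at least 0.707. Cox7a2, the general form of subunit 7a, had 2608, 2914 and 2805 in WT folic acid kidneys, against 3700.4, 3382, 3579.6 and 4307 in WT vehicle kidneys, without overlap (log2 -0.43, SE 0.14, limma adjusted p = 0.0888). Cox7a2l, which joins complexes III and IV, was without overlap in the opposite direction, at 1387, 1275 and 1219 in WT folic acid kidneys, against 1095, 1182, 1040.0 and 1059 in WT vehicle kidneys (log2 0.24, SE 0.10, limma adjusted p = 0.169). After folic acid Cox7a2l was lower in G3 than in WT in every library and Cox7a2 was higher, and neither passed (log2 -0.33, SE 0.10, limma adjusted p = 0.0929; log2 0.43, SE 0.14, limma adjusted p = 0.1102). The 15 tested members of complex IV had medians of log2 0.10, 0.03, 0.07 and 0.01 for folic acid in WT, folic acid in G3, and genotype after vehicle and after folic acid, and 9 of 15 lay above 0 for folic acid in WT. Without WT folic acid 1 that median was -0.0094, with 60% of the members below 0. Complex IV medians with the Y share as a term were 0.10, -0.14, 0.28 and -0.068 in the same order.

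Complex V, the ATP synthase, had 1 called member, Atp5c1, the gamma subunit of the central stalk. Its normalised count was 1479, 1718 and 1709 in WT folic acid kidneys, against 2314, 1934, 2263 and 2484 in WT vehicle kidneys. The WT folic acid kidneys lay below all other 12 libraries, and WT folic acid 1 was the lowest. Atp5c1 fell 1.37-fold (log2 -0.46, SE 0.13, limma adjusted p = 0.0480), the member call with the highest adjusted p. It was kept in 5 of 15 fits that left out 1 library and missed the threshold without G3 folic acid 1, G3 vehicle 2, 3 or 4, any WT folic acid kidney, or WT vehicle 1, 3 or 4. It was also lost with TMM scaling (adjusted p = 0.0514), by edgeR (0.0611), without a filter on low values (0.0634), with the compared groups alone (0.0829), without the trend (0.0832), with the labelled sex (0.0848) and with quantile scaling (0.0999). In the fits that left out 1 library and lost it, the adjusted p was between 0.0557 and 0.172, the last of these without WT folic acid 1. In G3 it had 2079, 2084, 2384 and 1811 after folic acid, against 1858, 2288, 2183 and 2282 after vehicle (log2 -0.04, SE 0.12, limma adjusted p = 0.920). Its difference in WT with the Y share as a term was log2 -0.22 (limma adjusted p = 0.981).

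The catalytic subunits did not pass. Atp5b, the beta subunit that makes ATP, averaged 3182 ± 430.4 in G3 folic acid, 3502 ± 540.4 in G3 vehicle, 2640.3 ± 227 in WT folic acid and 2958 ± 326 in WT vehicle kidneys (SD, n = 4, 4, 3 and 4). Its partner Atp5a1, the alpha subunit, averaged 4389.7 ± 459, 4968 ± 689, 4262 ± 405 and 5015 ± 323 in the same order. Atp5o, which ties the head to the side stalk, had 1619, 2226 and 2329.7 in WT folic acid kidneys, against 2769.7, 2504, 2677 and 2823 in WT vehicle kidneys, without overlap (log2 -0.40, SE 0.15, limma adjusted p = 0.109). It had the smallest p of complex V after folic acid in G3 as well, at 2135, 2284, 2486 and 1976 in G3 folic acid kidneys, against 2480.4, 3431, 2554 and 2733 in G3 vehicle kidneys, where the groups overlapped (log2 -0.33, SE 0.14, limma adjusted p = 0.283). Atp5e, the epsilon subunit, came closest to the threshold between genotypes after folic acid, at 1353, 1428, 1438 and 1289 in G3 folic acid kidneys, against 2006, 1922 and 2033 in WT folic acid kidneys, without overlap (log2 -0.53, SE 0.14, limma adjusted p = 0.0519). Atp5mpl, a small subunit of the membrane part, was 1399.8, 1315, 1527 and 1404 in G3 folic acid kidneys, against 1144, 1255, 1213 and 1313 in G3 vehicle kidneys, the single member without overlap upward in G3 (log2 0.20, SE 0.10, limma adjusted p = 0.398). In WT it was 1259, 1079 and 1096 in WT folic acid kidneys, against 1392, 1494, 1246 and 1418 in WT vehicle kidneys (log2 -0.28, SE 0.11, limma adjusted p = 0.133). The difference of the effects did not pass (log2 0.47, SE 0.15, limma adjusted p = 0.0849). Atp5j2, the f subunit, had the smallest p of complex V between genotypes after vehicle (log2 -0.27, SE 0.13, limma adjusted p = 0.291).

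The 3 genes that encode the same c subunit of the proton-driven ring went different ways. Atp5g1 was 3185, 3260.0, 3931 and 3833 in G3 folic acid kidneys, against 4356, 4723 and 4972 in WT folic acid kidneys, lower in G3 without overlap (log2 -0.40, SE 0.12, limma adjusted p = 0.0900). Atp5g3 was 4356, 3629, 3854 and 3007 in G3 folic acid kidneys, against 1977, 2016 and 2086 in WT folic acid kidneys, higher in G3 without overlap (log2 0.86, SE 0.25, limma adjusted p = 0.0780). Neither passed. Atp5g2 overlapped, at 177, 164, 159 and 139 in G3 folic acid kidneys, against 169, 125 and 140.1 in WT folic acid kidneys (log2 0.15, SE 0.18, limma adjusted p = 0.690). The 17 members of complex V had medians of log2 -0.18 for folic acid in WT (13 below 0; -0.11 without WT folic acid 1), -0.02 for folic acid in G3, -0.06 between genotypes after vehicle and 0.15 after folic acid. Fits with the Y share gave complex V medians of -0.015, -0.19, 0.10 and -0.028 in that order. The least abundant, Atp5s, had 11.2 to 37.96 normalised counts per library.

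A few members swung between libraries of 1 group far more than the rest. The SD of log2 values within groups had a median of 0.17 over the 81 members with a mean of at least 100, against 0.21 over 6454 such genes. It was 0.62 for Cox7c, a small subunit of complex IV, 0.57 for Ndufa4, now counted with complex IV, 0.50 for Ndufa1, 0.40 for Cox5a and Ndufb3 and 0.38 for Atp5g3. Cox7c was 1922, 1943, 1803 and 1379 in G3 folic acid, 769.8, 1831, 1844 and 1765 in G3 vehicle, 1569, 863 and 1273 in WT folic acid and 643, 583, 2013 and 1714 in WT vehicle kidneys. It was low in WT vehicle 1 and 2, G3 vehicle 1 and WT folic acid 2, and high in WT vehicle 3 and 4 and the other G3 vehicle kidneys, so that the 4 groups all overlapped. Ndufa4 was 789.8, 630.4, 614 and 573 in G3 folic acid, 244, 578, 642 and 607 in G3 vehicle, 492, 237 and 395 in WT folic acid and 280.5, 196, 537 and 545 in WT vehicle kidneys. Across 15 libraries, deviations from group means followed those of Cox7c with r = 0.95 for Ndufa4, 0.96 for Ndufa1, 0.73 for Cox5a, 0.86 for Ndufb3 and 0.90 for Atp5g3, as a description of genes chosen for their spread in the same libraries. Cox7c was 769.8 to 1943 in the 8 libraries rich in Xist and 643 to 2013 in the 5 rich in Y-linked RNA. The GC content of the last 500 transcript bases was 34.4% for Cox7c and 41.0 to 47.5% for the other 5. The rank correlation between GC content and deviation over the 81 members ran from -0.39 in G3 folic acid 2 to 0.39 in WT vehicle 1, against -0.14 to 0.16 over 6309 genes of all kinds. Genes of this kind often have processed pseudogene copies, and no source used here says how reads shared with such copies were assigned, so the levels of these 6 are uncertain to that extent. Sex by RNA and GC content were not tested as a source. Nor was RNA quality, which the labels give only as a range of 4.7 to 8.0 over the series.

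**Figure D4:**
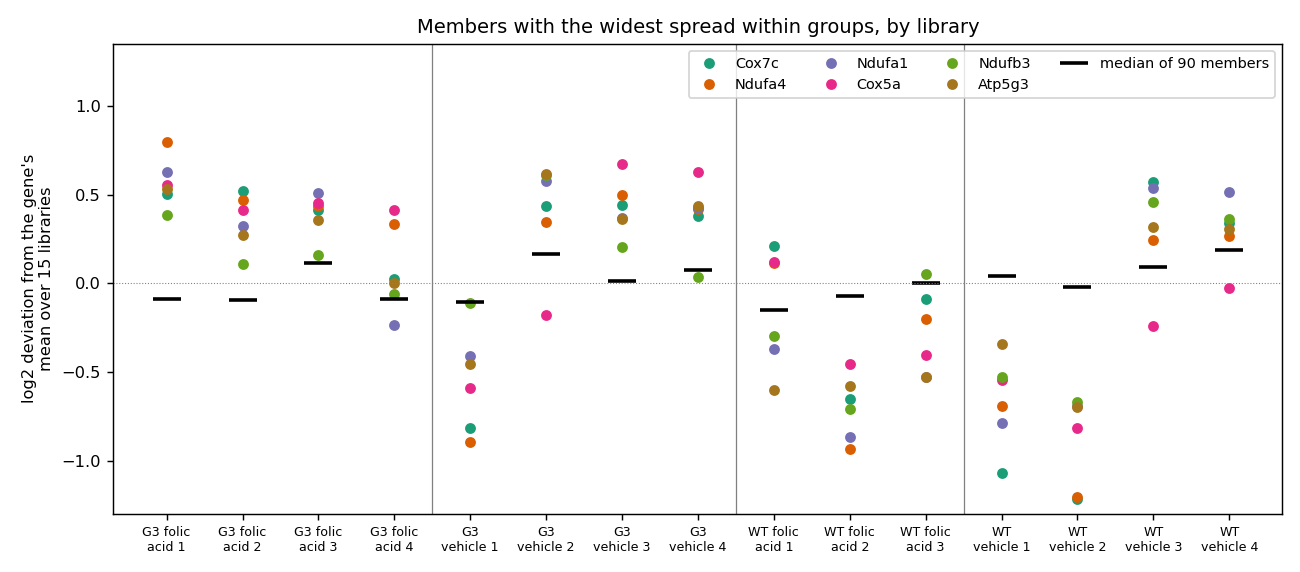
The 15 libraries run across by group, and the log2 deviation of each gene from its mean over 15 libraries runs up the page for the 6 members with the widest spread within groups and, as a bar, the median of the 90 tested members. The 6 genes lie low together in WT vehicle 1 and 2, G3 vehicle 1 and WT folic acid 2, where the median member lies between -0.11 and 0.04.

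Some of these 6 genes stood apart in the comparison of genotypes after folic acid. Of the 16 members higher in G3 without overlap, Cox5a, Ndufa1, Ndufa4 and Atp5g3 belong to them, with differences of log2 0.70, 0.90, 0.85 and 0.86 and limma adjusted p-values of 0.143, 0.133, 0.197 and 0.0780. Ndufa1, a small membrane subunit encoded on the X chromosome, was 608, 492, 559 and 334 in G3 folic acid kidneys, against 303, 215 and 272 in WT folic acid kidneys. Cox5a, which faces the matrix, was 1264, 1146, 1177 and 1149 in G3 folic acid kidneys, against 936, 628 and 651 in WT folic acid kidneys. In both genes G3 folic acid lay above WT folic acid without overlap. The WT folic acid kidneys overlapped the WT vehicle kidneys, which had 227, 243, 571 and 561 for Ndufa1 and 589, 489, 727 and 844 for Cox5a.

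Cell type markers moved with some of these libraries. The sum of the 8 macrophage markers was 1252 to 3174 in G3 folic acid, 776 to 1175 in G3 vehicle, 1302 to 3681 in WT folic acid and 1030 to 1434 in WT vehicle kidneys. The 8 fibroblast and pericyte markers summed to 2786 to 5483, 1147 to 2160, 1660 to 10078 and 1226 to 1691 in the same order, and the 7 tubular injury markers to 3895 to 8577, 2750 to 3534, 3626 to 6334 and 1925 to 3097. The highest of the WT folic acid kidneys in all 3 lists was number 1, the library with the lowest member level. In G3, number 3 had the least of these RNAs among the folic acid kidneys and the highest member level, 0.11. The thick ascending limb markers summed to 27165 to 34534 in WT folic acid kidneys, above the other 12 libraries (14578 to 22910). All markers of these lists had reads in every group. The part of these cell types in the members' levels was not tested.

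Other genes of the pathway gave 26 calls over the 5 comparisons, with 0 for folic acid in G3. The other comparisons were folic acid in WT, genotype after vehicle, genotype after folic acid, and difference of effects. In that order 5.06%, 2.9%, 2.3% and 3.82% of all genes were called. Calls took 6.25%, 0%, 3.12% and 3.12% of 32 assembly factors of complexes II to V and 0%, 14.3%, 14.3% and 14.3% of 7 carriers. Of 78 mitochondrial ribosomal proteins they took 5.13%, 2.56%, 2.56% and 3.85%. Among 32 assembly factors of complexes II to V tested, Sdhaf1, which helps to insert iron and sulphur into Sdhb, and Sco1, a copper carrier of complex IV, fell after folic acid in WT (0 higher). Sdhaf1 was 87.4, 112 and 118 in WT folic acid kidneys, against 190.0, 151, 214 and 251 in WT vehicle kidneys, without overlap (log2 -0.91, SE 0.21, limma adjusted p = 0.0261). Sdhaf1 missed the threshold without any 1 of the WT folic acid kidneys or WT vehicle 1, 3 or 4, and Sco1 without WT folic acid 1 or 3 or WT vehicle 1, 3 or 4, with the highest adjusted p (0.111 and 0.125) without WT folic acid 1. Sdhaf1 was also higher in G3 than in WT after folic acid (log2 0.83, SE 0.21, limma adjusted p = 0.0494). Its difference of the folic acid effects was log2 1.08 (limma adjusted p = 0.0476), and each of these calls held in 3 of 15 fits that left out 1 library. Sdhb itself did not pass between genotypes after folic acid (log2 0.31, SE 0.14, limma adjusted p = 0.231). Of 7 carriers tested, Cycs, cytochrome c, was lower in G3 after vehicle, at 573, 569.6, 560.4 and 598 in G3 vehicle kidneys, against 977, 782, 863 and 1039 in WT vehicle kidneys (log2 -0.66, SE 0.15, limma adjusted p = 0.0258). It missed the threshold without G3 vehicle 2, 3 or 4 or WT vehicle 1 or 4 (adjusted p up to 0.1002), and the difference of its folic acid effects was log2 0.89 (limma adjusted p = 0.0324; called in 4 of 15 such fits). Etfdh, which feeds electrons from fat oxidation into ubiquinone, was lower in G3 after folic acid, at 203, 166, 224 and 226 in G3 folic acid kidneys, against 309, 364 and 345 in WT folic acid kidneys (log2 -0.73, SE 0.14, limma adjusted p = 0.0198). It missed the threshold without G3 folic acid 1 or WT folic acid 2 or 3 (adjusted p up to 0.0919). Of 13 genes of the tricarboxylic acid cycle, 12 lay below 0 for folic acid in WT (median log2 -0.31, with 48.7% of all genes below 0; 10 and -0.24 without WT folic acid 1). None of the 13 passed in any of the 5 comparisons. Of 78 mitochondrial ribosomal proteins 4 (5.13%, against 5.06% of all genes) fell after folic acid in WT (Mrpl14, Mrpl16, Mrps26 and Mrps33), and none of the 4 passed without WT folic acid 1. Between genotypes Mrps27 was lower in G3 after vehicle (log2 -1.31, limma adjusted p = 0.00924) and after folic acid (log2 -1.25, limma adjusted p = 0.0247), Mrps18b after vehicle and Mrpl48 after folic acid, and Mrpl16, Mrpl57 and Mrps18b had a positive difference of the folic acid effects. Mrps27 after vehicle was the one call among the genes of these lists that held in all 15 fits that left out 1 library. The median of the ribosomal proteins for folic acid was log2 -0.16 in WT (-0.14 without WT folic acid 1) and -0.01 in G3. Limma called none of the genes of these lists named so far when the Y share was a term in all 15 libraries. Without the 2 libraries of mixed RNA it called Etfdh (log2 -1.02, limma adjusted p = 0.0385; 0.183 with all 15).

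Of 13 regulators tested 1 was called, in each of 2 comparisons (7.69%, against 2.3% and 3.82% of all genes). This was Ppargc1a, the coactivator PGC-1 alpha that drives transcription of respiratory chain genes. It was 491, 613, 596 and 544 in G3 folic acid, 759, 833, 754 and 766 in G3 vehicle, 700.0, 787 and 832 in WT folic acid and 689.9, 758, 626 and 695 in WT vehicle kidneys. Each G3 folic acid kidney lay below all other libraries, and Ppargc1a was lower in G3 than in WT after folic acid (log2 -0.46, SE 0.11, limma adjusted p = 0.0407), with a difference of the folic acid effects of log2 -0.63 (SE 0.15, limma adjusted p = 0.0287). These calls held in 6 and 8 of 15 fits that left out 1 library, with adjusted p-values up to 0.157 and 0.0878 (without WT folic acid 3), and neither held with the Y share as a term (0.365 and 0.9997). The median member was at log2 0.00 and 0.08 in these 2 comparisons, and the members called, both lower, were Uqcrc1 in the first and Uqcrc1 and Cox8b in the second. Nrf1, which encodes NRF-1, and Gabpa, which encodes a subunit of GABP, did not pass (log2 0.06, SE 0.17, limma adjusted p = 0.880; log2 -0.35, SE 0.20, limma adjusted p = 0.338 between genotypes after folic acid). Of the 13 genes of the mitochondrial genome, mt-Nd3 and mt-Nd6, subunits of complex I, were called. Calls took 15.4% of the 13 for folic acid in WT and for the difference of effects (5.06% and 3.82% of all genes). They took 7.69% between genotypes after vehicle and after folic acid (2.9% and 2.3% of all genes). mt-Nd3 was 6028, 6881 and 8633 in WT folic acid kidneys, against 3656, 2749, 4432 and 4703 in WT vehicle kidneys (log2 0.90, SE 0.18, limma adjusted p = 0.0132). The subunit gene mt-Nd6, the one gene encoded on the other strand, was 32.9, 43.2 and 28.6 in WT folic acid kidneys, against 59.9, 60.7, 65.2 and 58.9 in WT vehicle kidneys (log2 -0.81, SE 0.23, limma adjusted p = 0.0475). Neither gene overlapped between these groups, and they went opposite ways. The level of mt-Nd6 was only 24.1 to 65.2 over the 15 libraries, and no source used here names the strand setting of the counting. The call of mt-Nd3 missed the threshold without WT folic acid 3 (adjusted p = 0.0509), and that of mt-Nd6 held in 4 of 15 such fits (adjusted p up to 0.138, without WT folic acid 1). The 2 also differed in their folic acid effects, G3 minus WT, by log2 -0.92 for mt-Nd3 (limma adjusted p = 0.0386) and 1.31 for mt-Nd6 (0.0263), and mt-Nd6 was lower in G3 after vehicle (log2 -0.81, limma adjusted p = 0.0473). After folic acid mt-Nd3 was 3432, 2983, 3864 and 4021 in G3 folic acid kidneys, against 6028, 6881 and 8633 in WT folic acid kidneys (log2 -0.999, SE 0.18, limma adjusted p = 0.0138). It was the one gene of these lists still called there with the Y share as a term in all 15 libraries (limma adjusted p = 0.00898). It missed the threshold without G3 folic acid 1, WT folic acid 2 or WT folic acid 3 (adjusted p between 0.0517 and 0.0784). Of the 26 calls of pathway genes outside the members, over the 5 comparisons, 20 were lost with the labelled sex as a term, 17 without the mean-variance trend, 7 without a filter on low values, and 8 of the 18 that could be refitted with the compared groups alone.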

How the data were processed

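RNA from 15 mouse kidneys was made into 3' end libraries with the QuantSeq FWD kit, per the labels' protocols. Reads were processed with FastQC 0.11.7, TopHat2 2.0.10, Bowtie 1.0.0, SAMtools 0.1.19, HTSeq 0.6.1 and DESeq2 on GRCm38, per the submitters' processing notes. No source used here names the annotation release or the strand setting. The deposited values are a signal, read counts scaled by the authors with a size factor for each library, and whole reads came back for 100% of values (within 0.001). The 3' ends are not divided by transcript length, so levels are compared within a gene.

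Groups follow the labels. limma 3.58.1 in R 4.3.3 was fitted on log2(value + 1) with the group as the only term and an intensity trend, over all 15 libraries and all 14651 genes with at least 10 normalised counts in at least 3 libraries, with Benjamini-Hochberg adjustment over all of them and a threshold of 0.05. The count tests of edgeR 4.0.16 and DESeq2 1.42.0 were run on the recovered reads as alternatives. Other alternatives were the labelled sex, the Y share, the number series of the sample titles, library weights, TMM and quantile scaling, other pseudocounts and filters, no trend, the compared groups alone, and each library left out. Only the limma fit with the group alone was tested on simulated counts, with genes changed in WT folic acid. The simulated counts held no effect of sex, and the other fits were not tested in this way. The members, the lists and the tests were chosen with earlier results of these data known. Named genes were a panel of core and isoform subunits, every member called, and the member of smallest p in each class and comparison. The values of 1 panel gene are not reported here. The genes of widest spread, the motifs and the others named for not overlapping, were chosen after their values were seen. Depth limits mainly members with few counts, such as Cox8b and Ndufa4l2.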

Additional observations from a re-analysis of the deposited data

Results flagged for a closer look

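In groups of 4, single libraries stood far from the other 3 in 5 of 84 groups tested, where chance gives about 1 in 20. Cox8b was 193 in G3 vehicle 1, against 44.1 to 63.8 in the other G3 vehicle kidneys, and 36.0 in WT vehicle 2, against 2.88 to 6.99 in the other WT vehicle kidneys. G3 vehicle 1 also held Ucp1 and Cidea, and WT vehicle 2 held Xist beside Y-linked RNA. Sdhd was 124 in WT vehicle 3, against 37.3 to 49.0 in the other WT vehicle kidneys. Cox7a2l was 1026 in G3 vehicle 2, against 1165 to 1192 in the other G3 vehicle kidneys. The mean deviation of all tested members was 0.11 on the log2 scale in G3 folic acid 3, against -0.10 to -0.07 in the other G3 folic acid kidneys.

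The response to folic acid differed between genotypes, by the limma test of the difference, for Cox8b (log2 -5.99, G3 minus WT) and Uqcrc1 (log2 -0.68). With the Y share as a term neither passed, at log2 -1.07 and -0.77. The part of sex by RNA in these differences was not tested beyond that term, since it nearly repeats the groups.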

How the results depend on the processing

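The 5 comparisons are given as folic acid in WT, folic acid in G3, genotype after vehicle, genotype after folic acid, and difference of effects, where limma called 3, 0, 1, 1 and 2 members. No paired analysis was possible because the labels carry no replicate numbers. Leaving out 1 library gave 0 to 9, 0 to 1, 0 to 3, 0 to 6 and 0 to 5 calls and medians of log2 -0.20 to -0.11, -0.11 to -0.02, -0.08 to 0.03, -0.03 to 0.03 and 0.02 to 0.15. With the labelled sex as a term the count was 1 for folic acid in WT and 0 for genotype after vehicle and the difference of effects. With the Y share as a term limma called 0 in each comparison, also without the 2 libraries of mixed RNA, and edgeR called 0 in each. DESeq2 with that term called 0 for folic acid in WT, genotype after vehicle and the difference of effects. For folic acid in WT the median with that term was 0.056 by limma, 0.058 by edgeR and 0.056 by DESeq2, and -0.0098 without the mixed libraries. For folic acid in G3 it was -0.18 by limma, -0.16 by DESeq2 and -0.13 without the mixed libraries. For genotype after vehicle it was 0.15 by limma, 0.17 by edgeR, 0.16 by DESeq2 and 0.12 without the mixed libraries. For the difference of effects it was -0.23 by limma, -0.20 by edgeR, -0.21 by DESeq2 and -0.12 without the mixed libraries.

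Signs turned round with the Y share as a term. For genotype after vehicle these were Ndufv3 (0.13 by limma, 0.16 by edgeR, 0.15 by DESeq2, 0.11 without the mixed libraries), Uqcrq (0.041, 0.059, 0.052 and 0.10 in the same order) and, without the mixed libraries, Ndufaf1 (0.16), Atp5j2 (0.064) and Cycs (0.18). For the difference of effects these were Ndufb4 (-0.20 by limma, -0.18 by edgeR, -0.18 by DESeq2) and, without the mixed libraries, Cycs (-0.42) and Mrpl16 (-0.22), which was also 0.015 for folic acid in WT. With the running numbers of the titles as a term, 0 members were called for folic acid in WT, both genotype comparisons and the difference of effects, with medians of -0.13 for genotype after folic acid and -0.037 for the difference of effects.

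Library weights gave 17, 2, 7, 27 and 8 calls, with 14.2%, 4.76%, 10.2%, 19.5% and 10.6% of all genes called. DESeq2 without a sex term gave 8 for folic acid in WT (8.58% of all genes) and 11 for genotype after folic acid (5.21%). Without the trend the count was 1 for folic acid in WT, 0 for genotype after vehicle and 1 for the difference of effects, and with the compared groups alone it was 1 for folic acid in WT. A minimum of 20 in 7 libraries gave 2 for genotype after folic acid, and a pseudocount of 5 gave 2 for genotype after vehicle. Quantile scaling gave 0 (median 0.12) for genotype after vehicle and 3 for genotype after folic acid. The cause of these shifts was not tested. The fits of edgeR and DESeq2 with the Y share, and those of the pathway genes, were chosen after seeing the data.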
